A study of Danio rerio with 6 samples.

Results

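The comparison described here set all 4 arrays of injected zebrafish embryos against the 2 arrays of uninjected embryos, which together are the 6 arrays of the series. Gene expression was measured in whole embryos at 72 hours post fertilization (hpf) with Affymetrix arrays, on which each probe set gives 1 fluorescence signal for a transcript. Eggs pooled from several aquaria received, no later than the 4 cell stage, 15 uM of ERbeta2_MO, a morpholino against translation of ERbeta2, an estrogen receptor, or 15 uM of coMO, a standard control morpholino, or were left uninjected. Each of these 3 groups had 2 arrays, which the labels call biological replicates, and all embryos were raised at 28 °C. No strain or transgene is named in the labels, and the sources used here do not give the number of embryos in a sample. No group received an injection without a morpholino, so the injection and the morpholino cannot be told apart in what follows.

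A morpholino is a synthetic antisense oligomer that binds an mRNA and blocks its translation or splicing without destroying it. Injection of an early zebrafish embryo places the oligomer in all cells that arise from it, and a control morpholino is used to show what injection and any oligomer do. By 72 hpf a zebrafish embryo has hatched or is hatching, its liver, pancreas and gut are becoming functional, its photoreceptors and lens are differentiating, and primitive red blood cells carry embryonic globins.

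A probe set was a member of the shared set when all 4 injected arrays lay on the same side of both uninjected arrays. Of 11626 probe sets tested, 2149 lay above (18.5%) and 1992 lay below (17.1%), 4141 in all (35.6%). The rule sets no minimum gap. At its edge the injected signals of rabl2 were 90.3, 91.5, 159 and 89.42 against uninjected signals of 89.42 and 75.6, which counts as above by a gap smaller than the digits printed, whereas cep43, at 690, 592, 458.7 and 474 against 404 and 458.7, does not, by a gap as small. Counted by gene, with 1 probe set for each of 7299 genes, 1224 lay above (16.8%) and 1316 below (18%). The sign of the difference is set by the rule, so the sides are given as a description. No gene named below passed the pooled fit, where the smallest adjusted p was 0.17, and for genes named from a list the text says where the 3-group fit did not call them either.

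No probe set passed the test of the pooled comparison. The fit of 4 injected against 2 uninjected arrays, made with limma on log2(signal + 32), called 0 of 11626 probe sets (0%) at a Benjamini-Hochberg adjusted p of 0.05, and the smallest adjusted p was 0.17. At an unadjusted p below 0.05 there were 2345 probe sets, 1075 higher (9.25%) and 1270 lower (10.9%). In this fit the difference between the morpholinos counts as spread within the injected arrays. An alternative fit with 3 groups, which takes the mean of both injected groups against the uninjected group, called 367 probe sets higher (3.16%) and 628 lower (5.4%), or 177 genes higher (2.42%) and 421 lower (5.77%). Whether genes are called therefore depends on the fit. In the text below a gene called higher or lower is one that passed in the 3-group fit and did not pass in the pooled fit. Such a call tests the mean of the injected groups, so a large difference in ERbeta2_MO alone can produce it. It does not show that coMO differed from uninjected embryos, a comparison that called 0 probe sets by itself. Of the 995 probe sets called, 941 lay on one side of the uninjected arrays and 54 did not. Both counts use the same signals, so neither supports the other.

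The calls of the 3-group fit also depended on single arrays. They numbered 0 higher and 0 lower without uninjected replicate 1, 0 and 8 without uninjected replicate 2, and 1 and 0 without coMO replicate 1. Without ERbeta2_MO replicate 1 there were 1258 and 1523, without ERbeta2_MO replicate 2 there were 928 and 1307, and without coMO replicate 2 there were 135 and 314. In the pooled fit, leaving out coMO replicate 2 gave 201 higher and 393 lower, and leaving out any other single array gave 0. A leave-one-out fit that leaves 1 array in a group assumes that it varies like the other groups. Scaling changed the balance of the sides, since with each array centred on its median log2 signal 2813 probe sets lay above and 1618 below and the 3-group fit called 570 higher and 483 lower. That centring placed the median change of all probe sets at 0.11 on the log2 scale, against 0.03 without it.

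The injected and uninjected arrays also differed in a measure of RNA integrity. The ratio of the signals at the 3′ and 5′ ends of the actin transcript, which is higher where RNA is less intact or less fully copied, was 8.92 and 13.5 with ERbeta2_MO and 21.8 and 10.8 with coMO, against 3.54 and 4.26 without injection. The 4 injected arrays lay above both uninjected arrays. For GAPDH the ratios were 2.76 and 2.01 with ERbeta2_MO and 1.95 and 1.23 with coMO, against 1.32 and 1.24 without injection, and the groups overlapped through coMO replicate 2. For dap, a spiked-in bacterial transcript, the ratios overlapped between the groups. With the log2 GAPDH or actin ratio as a covariate, the 3-group fit called 0 probe sets in either direction. The covariate also takes up a residual degree of freedom and lowers precision, so this count does not show what the ratio accounts for. Because the actin ratio separates the groups, its part in the differences below and that of injection cannot be told apart. The first principal component, with 62% of the variance, ran from the ERbeta2_MO arrays (-45.4 and -40.0) over the coMO arrays (-4.84 and 17.5) to the uninjected arrays (40.7 and 32.1).

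**Figure D1:**
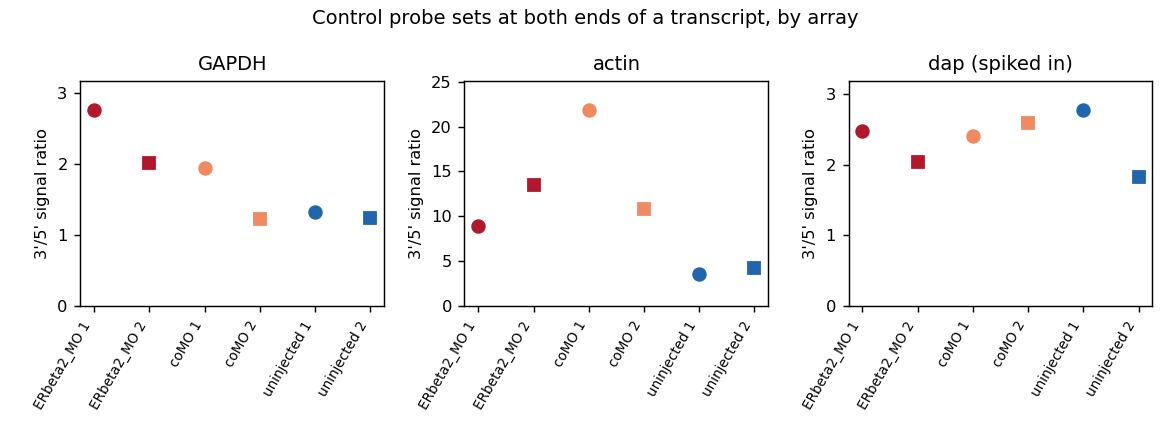
Ratios of the 3′ to the 5′ signal of GAPDH, actin and the spiked-in dap transcript, with 1 point per array and each vertical axis starting at 0. The actin ratios of the 4 injected arrays, 8.92 to 21.8, lie above the uninjected 3.54 and 4.26, while the GAPDH ratio of coMO replicate 2, 1.23, lies below both uninjected arrays.

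Within the shared set the 2 morpholinos differed in size. Of the 2149 probe sets above, both ERbeta2_MO arrays lay beyond both coMO arrays in 1006, both coMO arrays lay beyond in 95, and the 2 groups overlapped in 1048. Of the 1992 below, the corresponding numbers were 975, 67 and 950. The same orders were not counted over all probe sets, so they are not shown to be particular to the shared set. The median difference from the uninjected arrays of the probe sets above was 0.62 on the log2 scale for ERbeta2_MO and 0.39 for coMO, and of those below it was -0.85 and -0.50. These 2 comparisons share the uninjected arrays. Tested separately in the 3-group fit, ERbeta2_MO against uninjected embryos called 966 probe sets higher and 1190 lower (18.5%), and coMO against uninjected embryos called 0 (0%), with 1456 at an unadjusted p below 0.05 and a smallest adjusted p of 0.32. The direct comparison of ERbeta2_MO with coMO called 76 higher and 190 lower (2.29%), among them 17 of the probe sets above and 110 of those below.

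The sides also differed in annotation and in the span of their genes, which the rule did not use. Of the probe sets above, 63.3% carried 1 gene symbol, against 87.2% of those below and 74.8% of all tested. The median genomic span of the genes, available for 99.4% of them in the RefSeq gene table, was 19.4 kb above, 13.4 kb below and 15.6 kb in the genes that overlapped, with quartiles of 8.85 and 46.0, 7.39 and 25.1, and 7.61 and 34.4 kb. The following values come from the same signals as the rule. The median of the mean signal was 588 above, 299.8 below and 325 in the overlapping probe sets. Differences of at least 1 on the log2 scale were held by 113 of the 2149 probe sets above and 497 of the 1992 below. These are descriptions over probe sets and genes, which are not independent replicates.

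The 12 genes above with the smallest unadjusted p in the pooled fit included 3 of red blood cells and 1 each of muscle and lens. The embryonic alpha globin gene hbae3 had signals of 27135 and 38112 in ERbeta2_MO and 26232 and 27726 in coMO, against 11624 and 16702 in uninjected embryos. Its mean was 29801 ± 5574 (SD, n = 4) in injected and 14163 ± 3591 (SD, n = 2) in uninjected embryos, a difference of 1.08 on the log2 scale (SE 0.22, limma adjusted p = 0.17 pooled and 0.029 in the 3-group fit). The gene alas2, which encodes the erythroid first enzyme of heme synthesis, stood at 412 and 623, 392 and 348, against 135 and 159.9. Its pooled difference was 1.38 (SE 0.25), with an adjusted p of 0.018 in the 3-group fit by limma. For nt5c2l1, of the cytosolic 5′-nucleotidase family, the signals were 348 and 369, 302 and 298, against 127 and 130.2, a difference of 1.17 (SE 0.19). All 4 injected arrays lay above both uninjected arrays for these genes, and the pooled adjusted p was 0.17 for each of the 12 and did not pass.

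The other genes of this group included those of muscle and lens. The sarcomere gene ttn.2, one of the genes for the giant elastic protein titin, had signals of 16898 and 11391 in ERbeta2_MO and 10671 and 9720.1 in coMO, against 3333 and 5196 in uninjected embryos, a difference of 1.51 (SE 0.27). The lens crystallin gene crygmxl2 stood at 7691 and 10059, 11644 and 9964, against 4244 and 5308, a difference of 1.03 (SE 0.21), and here the coMO mean was the higher of the injected groups. The chromatin regulator gene kmt2e had signals of 1097 and 1432, 1390.2 and 1209.6, against 626 and 648. For meis2b, a homeodomain cofactor of Hox proteins, they were 1556 and 2252, 1572 and 1759.5, against 874 and 795. The remaining 5 were acvr2ba, an activin receptor gene, alcama, a gene for a neuronal adhesion molecule, carmil2, arvcfb, of the catenin family, and ptprsa, a receptor phosphatase gene. Their pooled differences lay between 0.95 and 1.41. The only other probe set of alcama lay the opposite way, and neither of the 2 other probe sets of acvr2ba lay above.

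The 12 genes below with the smallest unadjusted p included genes of mitochondrial and nucleotide metabolism. The gap junction gene gjb8 had signals of 35.5 and 45.0 in ERbeta2_MO and 41.1 and 60.6 in coMO, against 188 and 223 in uninjected embryos, a difference of -1.62 (SE 0.21, unadjusted p = 4.75e-05, limma adjusted p = 0.17). It was the smallest unadjusted p of the pooled fit among these 24 genes, and the probe set shares a cluster name with another gene. The injected signals of gjb8 may be background. It passed the filter on mean signal through its uninjected arrays, so its side, p and call are description only. The gene ucp3, for a mitochondrial uncoupling protein, stood at 174 and 152, 212 and 232, against 1119 and 577. The gene pdk4, for a kinase that switches off pyruvate dehydrogenase, had signals of 92.1 and 91.2, 114 and 151, against 369.8 and 359.6. For adss1, the muscle enzyme of the purine nucleotide cycle, they were 171 and 143, 187 and 389, against 1128 and 925, a difference of -2.14 (SE 0.34). No injected array reached the lower of the uninjected arrays for any of these genes.

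Others of the 12 included krt1-19d of the epidermis and fin fold list and amy2a of the exocrine pancreas list, which is described below. The gene a2m2e, of the alpha-2-macroglobulin family, had signals of 45.2 and 91.3 in ERbeta2_MO and 72.9 and 216 in coMO, against 554 and 846, a difference of -2.51 (SE 0.42). The gene pla2g12b, a member of the phospholipase A2 family with a role in lipoprotein secretion in mouse and zebrafish, stood at 257 and 224, 218 and 319, against 668 and 661. The keratin gene krt1-19d had signals of 75.1 and 35.3, 129 and 142, against 601 and 419, and the FAD synthase gene flad1 had 51.1 and 32.2, 50.2 and 46.8, against 138 and 138. Like gjb8, flad1 passed the filter on mean signal through its uninjected arrays, so its side, p and call are description only. The methionine sulfoxide reductase gene msrb1a, the mitochondrial carrier gene slc25a55b and si:dkey-193p11.2 differed by -1.63, -1.41 and -2.34. All 24 genes were also called in the 3-group fit, with limma adjusted p between 0.018 and 0.030. They were picked for small p, so these values describe the top of the ranking.

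**Figure D2:**
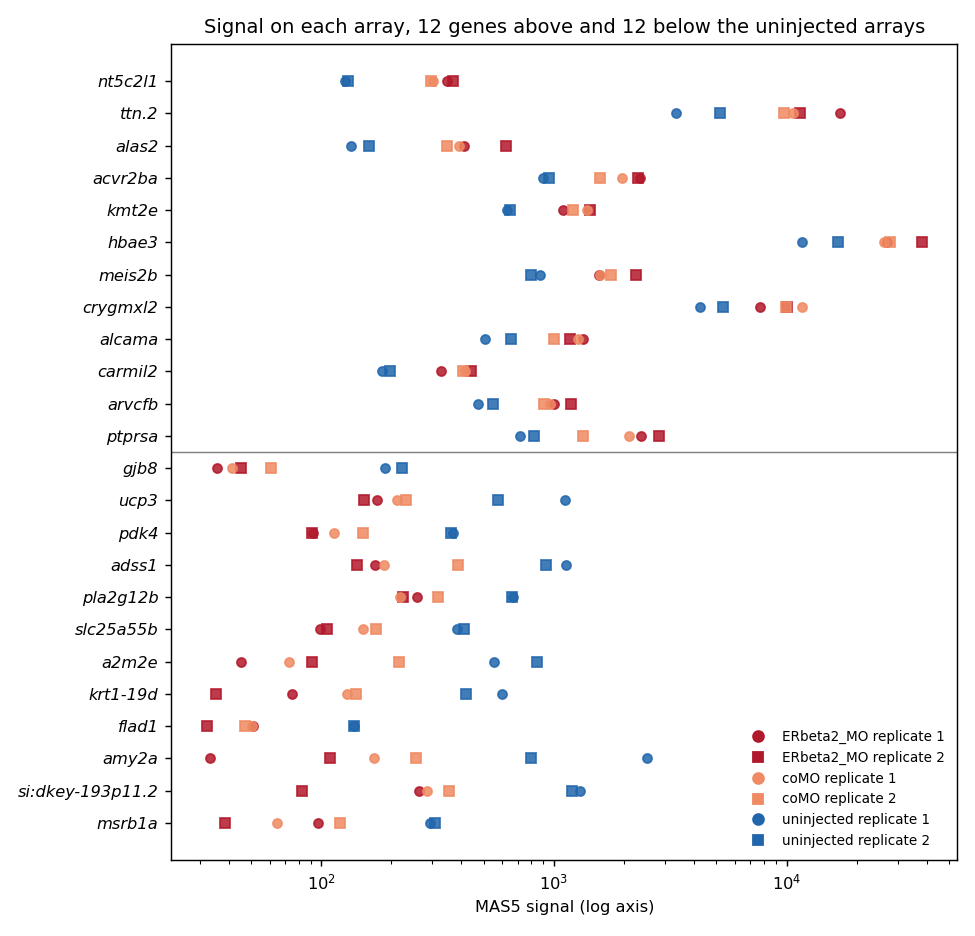
MAS5 signal on a log axis on each of the 6 arrays for the 12 genes above and the 12 below with the smallest unadjusted p in the pooled fit. In each row the uninjected circles and squares lie apart from the 4 injected points, and amy2a and ucp3 also differ between the uninjected arrays, at 2518 and 801 and at 1119 and 577.

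The exocrine pancreas list gave the largest displaced share of the 37 gene lists. It holds digestive enzymes secreted by acinar cells and their helpers. Of 19 genes measured, 17 lay below on all 4 injected arrays and 0 above, 0 were called in the pooled fit, and 16 were called lower in the 3-group fit. Their median difference was -2.67 on the log2 scale, against 0.00 for all genes, with -3.50 for ERbeta2_MO and -1.58 for coMO. In whole embryos, fewer cells of a type and less RNA per cell cannot be told apart. For this and the following lists, the shares called over all genes were 2.42% higher and 5.77% lower in the 3-group fit.

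Among the proteases, the trypsin gene prss1 had signals of 311 and 631 in ERbeta2_MO and 1911 and 2700.5 in coMO, against 9474 and 4679 in uninjected embryos. Its pooled difference was -2.67 (SE 0.76, limma adjusted p = 0.171), and that between ERbeta2_MO and coMO was -2.27 (adjusted p = 0.039). The elastase gene ela2 stood at 12.02 and 48.1, 216 and 717, against 6313 and 1577, a difference of -4.32 (SE 1.03). The chymotrypsin genes ctrb.1 and ctrl differed by -3.30 and -2.78, with ctrb.1 signals of 102 and 320.5, 1204 and 2449, against 8185 and 4443. For ctrb.2 the signals were 44.4 and 77.1, 152 and 200.4, against 2106 and 466, and the probe sets of ctrb.1 and ctrb.2 share a cluster name with another gene. For these genes the order of the arrays was ERbeta2_MO, then coMO, then uninjected, without overlap.

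Of the amylase genes, amy2a lay below and amy2al1 overlapped. The amylase gene amy2a had signals of 33.1 and 109 in ERbeta2_MO and 168 and 256 in coMO, against 2518 and 801. Its mean of 141 ± 94.2 (SD, n = 4) compared with 1659 ± 1214 (SD, n = 2), a difference of -3.26 (SE 0.60). The zymogen granule gene sycn.2 stood at 61.2 and 91.2, 192 and 298, against 953 and 526, and pdia2, a protein disulfide isomerase of the pancreas, at 14.1 and 42.7, 109.8 and 159, against 655 and 321. The 2 genes that overlapped were amy2al1 and ptf1a, the latter a transcription factor of pancreas progenitors and some neurons, with 137 and 155, 116 and 125, against 79.2 and 126. The uninjected arrays differed from each other in this list, with list medians of 0.51 and -0.51 around their mean, while the injected arrays lay at -3.78, -3.01, -1.95 and -1.29. The 16 calls numbered 0 without uninjected replicate 1, 4 without uninjected replicate 2 and 0 without coMO replicate 1. In the pooled fit without coMO replicate 2 there were 14.

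**Figure D3:**
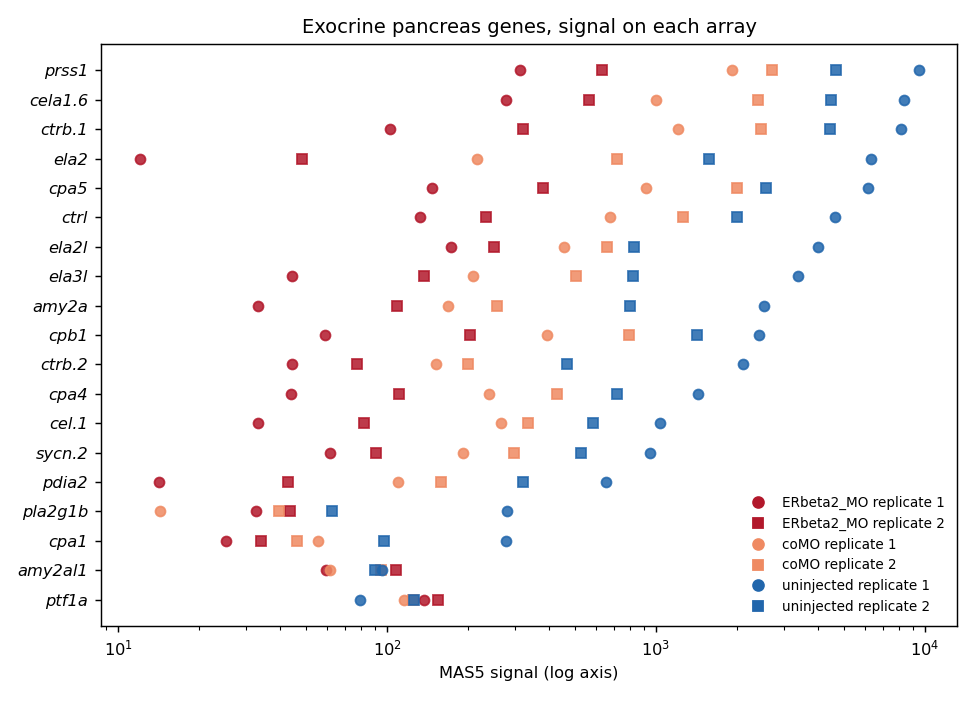
MAS5 signal on a log axis of the 19 exocrine pancreas genes on each of the 6 arrays, ordered by the signal of uninjected replicate 1. In 17 rows the 4 injected points lie left of both uninjected points, and the rows of ptf1a and amy2al1 overlap.

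Most liver genes also lay below. Of 57 genes of secreted plasma proteins and hepatic metabolism, 43 lay below and 0 above, and the 3-group fit called 24 lower and 1 higher, the complement gene c6.2, which did not lie on one side. The median difference was -1.07 (ERbeta2_MO -1.17, coMO -0.79). The carboxylesterase gene ces2a had signals of 779.8 and 698 in ERbeta2_MO and 794 and 2150.0 in coMO, against 4093 and 3955. The gene gnmt, for an enzyme that uses methyl groups in the liver, stood at 589.8 and 219, 442 and 437, against 1386 and 1304. The antithrombin gene serpinc1 had 159 and 194, 253 and 266, against 487 and 564, a difference of -1.18 (SE 0.24), and itih2 differed by -1.07 (SE 0.22). For these 4 genes the comparison of ERbeta2_MO with coMO did not pass (limma adjusted p between 0.233 and 0.737).

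Other liver genes lay in steps. The gene fabp10a, for the fatty acid binding protein of liver, had signals of 45.0 and 141 in ERbeta2_MO and 766 and 1098 in coMO, against 2100.3 and 1233, and the morpholinos differed by -3.04 (adjusted p = 0.018). The urate oxidase gene uox stood at 53.5 and 146, 694 and 908, against 1776 and 1009.6, with a difference of -2.74 between the morpholinos (adjusted p = 0.021). By contrast apoa1a, the main apolipoprotein of high density lipoprotein, had signals of 10658 and 4144, 5678 and 16354, against 20369 and 23872. It was not called in either fit (adjusted p = 0.18 and 0.084).

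Intestinal genes showed a similar share below. Of 31 measured, 23 lay below and 0 above, and 18 were called lower in the 3-group fit, with a median of -1.03 (ERbeta2_MO -1.42, coMO -0.69). The villin gene vil1, which encodes an actin bundler of microvilli, had signals of 13.1 and 55.2 in ERbeta2_MO and 266 and 278 in coMO, against 729 and 522. The gene fabp2, for its intestinal counterpart of the fatty acid binding family, stood at 458 and 480.3, 2191 and 2959, against 6707 and 3774, and the chitinase gene chia.2 at 44.3 and 126, 299.5 and 391, against 1767 and 769. For vil1 and fabp2 the morpholinos differed by -2.28 and -2.36 (limma adjusted p = 0.022 and 0.015). The apolipoprotein A-IV gene apoa4b.2 lay at 1609 and 793, 1056 and 3214, against 7136 and 6952, and the peptidase gene pepd at 117 and 133, 148 and 170.2, against 319.6 and 235.

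The medians of the 3 digestive lists moved when an RNA ratio entered, by amounts that depended on the fit. In the pooled fit they were -1.33 for exocrine pancreas, -0.70 for liver and -0.62 for intestine after adjustment for the GAPDH ratio, and -3.60, -0.66 and -1.13 after adjustment for the actin ratio. In the 3-group fit adjusted for the GAPDH ratio they were -1.88 for exocrine pancreas, -0.90 for liver and -0.94 for intestine. Without adjustment they were -2.67, -1.07 and -1.03. In the 3-group fit adjusted for the actin ratio they were -1.86 and -0.63 for exocrine pancreas and intestine, while that of liver turned to 0.25. The list of hatching gland and yolk genes, which shares members with the gut and liver lists, had 8 of 10 below and 0 above, with 4 called lower and a median of -0.69. In the list of receptors and response genes of estrogen, 4 of 9 lay below and 0 above, and 2 were called lower, shbg and agr2, which are also in the liver and intestine lists. The receptor genes esr1, esr2a and esr2b did not pass the filter on low signals, with signals of at most 94.9 on any array, and overlapped between injected and uninjected embryos.

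**Figure D4:**
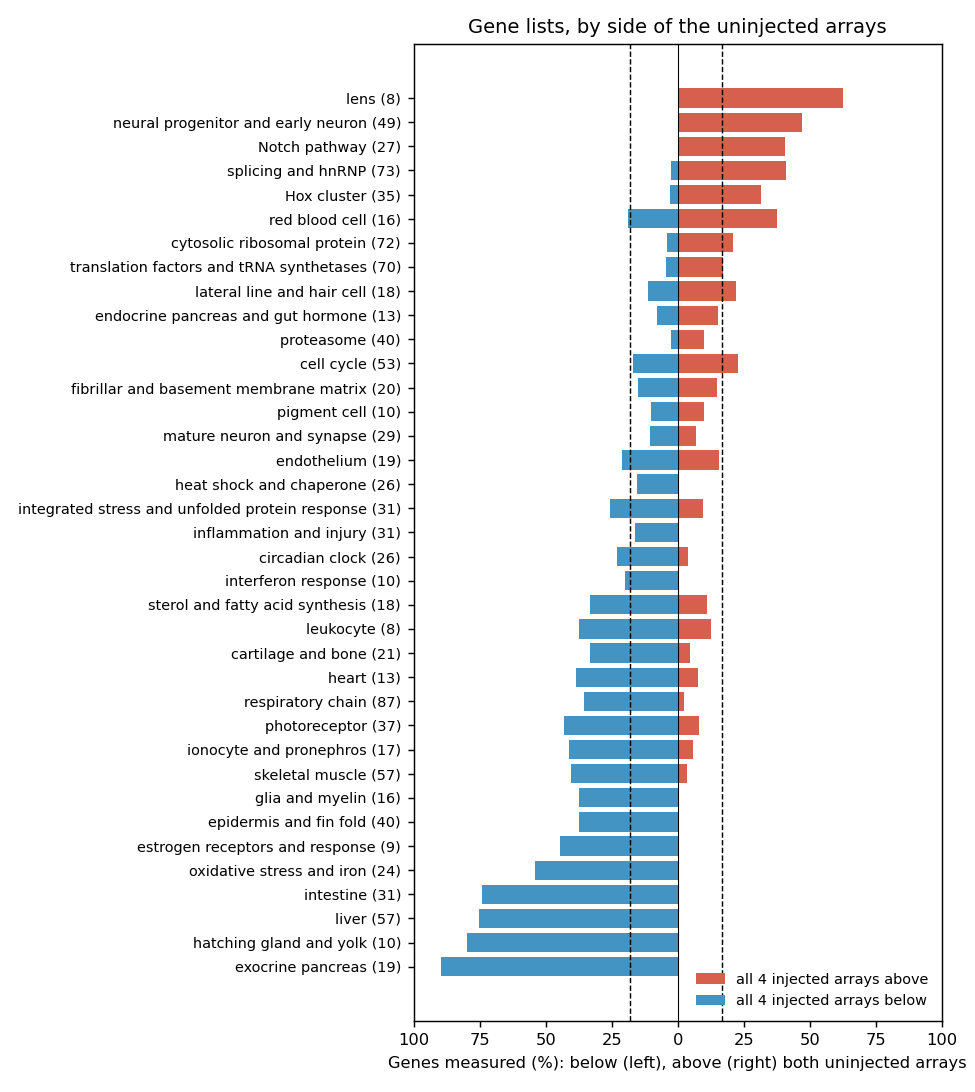
Share of measured genes in each of the 37 lists with all 4 injected arrays below (left) or above (right) both uninjected arrays, with the number measured in brackets and dashed lines at the shares over all genes, 18% and 16.8%. Exocrine pancreas, hatching gland and yolk, liver and intestine reach furthest to the left, and lens and the neural, Notch and splicing lists reach furthest to the right.

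Antioxidant and iron genes lay below in part. Of 24 measured, 13 lay below and 0 above, and 7 were called lower in the 3-group fit. Their median of -0.49 was close to those for ERbeta2_MO (-0.50) and coMO (-0.47). Adjusted for the actin ratio it was -0.19 in the pooled and 0.01 in the 3-group fit. The glutathione peroxidase gene gpx4a had signals of 1071 and 503 in ERbeta2_MO and 576 and 1099.6 in coMO, against 2272 and 2114. The mitochondrial superoxide dismutase gene sod2 stood at 628 and 458, 921 and 1164, against 2001 and 1965, and the quinone reductase gene nqo1 at 729 and 279, 529 and 631, against 1795 and 1187. The catalase gene cat had 303 and 446, 798 and 983, against 1460.2 and 1439, and differed between the morpholinos by -1.20 (limma adjusted p = 0.045). The ferritin gene fthl28 was lower in coMO, at 74.4 and 73.1, than in ERbeta2_MO, at 138 and 139, with uninjected signals of 249 and 331. Its probe set shares a cluster name with another gene.

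Muscle and respiratory genes had smaller median differences than the digestive lists. Of 57 skeletal muscle genes, 23 lay below and 2 above. The 3-group fit called 5 lower and 1 higher, which was ttn.2, near the shares of 5.77% and 2.42% over all genes. The median was -0.44, or -0.23 without ERbeta2_MO replicate 2, and adjustment for the actin ratio turned it to 0.03 in the pooled and 0.44 in the 3-group fit. The myoglobin gene mb had signals of 455 and 358 in ERbeta2_MO and 756 and 645 in coMO, against 2167 and 989, and the phosphofructokinase gene pfkma stood at 269.9 and 177, 489.8 and 726, against 1018 and 1149.5. Of 87 respiratory chain genes, 31 lay below and 2 above, 9 were called lower and the median was -0.25, which was -0.16 without ERbeta2_MO replicate 2 and turned to 0.19 in the 3-group fit adjusted for the actin ratio. The succinate dehydrogenase gene sdha had 1786 and 1733, 2337 and 2891, against 4519 and 3986, and the complex III genes uqcrc1 and uqcrc2a differed by -0.78 (SE 0.23) and -0.86 (SE 0.21). With median centring, 18 of the muscle and 22 of the respiratory genes lay below.

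Skin and ion transport genes lay below more than above. Of 40 epidermis and fin fold genes, 15 lay below and 0 above, 7 were called lower and the median was -0.65. Adjusted for the actin ratio the median was -0.14 in the pooled fit and turned to 0.43 in the 3-group fit, and without ERbeta2_MO replicate 2 it was -0.41. The periplakin gene ppl and the envoplakin gene evpla, of the cell cortex of keratinocytes, differed by -1.36 and -1.09, of which ppl was not called (limma adjusted p = 0.061 in the 3-group fit). The gene evpla passed the filter on mean signal through its uninjected arrays, so its side and call are description only. The claudin gene cldni had signals of 2215 and 1659, 2977 and 4037, against 5743 and 5973. The ERbeta2_MO arrays differed from each other here, with list medians of -0.35 in replicate 1 and -1.37 in replicate 2. Of 17 ionocyte and pronephros genes, 7 lay below and 1 above, with 4 called lower and 1 higher, the transcription factor gene pax2a. The carbonic anhydrase gene ca2 stood at 1762 and 1325, 2267 and 2369, against 4010.2 and 3804. The sodium pump subunit gene atp1a1a.3 had 180.2 and 258, 264 and 304, against 507 and 421.

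In the photoreceptor list the difference from uninjected embryos was larger for ERbeta2_MO than for coMO. Of 37 measured, 16 lay below and 3 above, and the 3-group fit called 13 lower and 1 higher. The median was -1.48, with -2.48 for ERbeta2_MO and -0.17 for coMO. ERbeta2_MO against coMO called 18 of the 37, against 192 of 7299 over all genes, counted whether or not they were members of the shared set. Without ERbeta2_MO replicate 1 the pooled median was -0.77. The 13 lower calls numbered 0 without coMO replicate 1 or either uninjected array, 2 without coMO replicate 2, and 24 and 26 without ERbeta2_MO replicate 1 and 2. The cone transducin gene gnat2 had signals of 58.2 and 390.2 in ERbeta2_MO, 2783 and 4869 in coMO, against 6307 and 6567, with a difference of -4.25 between the morpholinos (limma adjusted p = 0.022). The disc rim genes prph2a and prph2b lay in the same order, prph2a at 27.4 and 95.6, 220.4 and 451, against 918 and 775. The green cone opsin gene opn1mw1 was no member, because its coMO signals of 8605 and 12374 overlapped the uninjected 13196 and 11226. The 3 genes above were gnb1a, gnb1b and the transcription factor gene crx, whose signals were 1735 and 2741, 1775 and 1466, against 1276 and 1305, and gnb1a and crx were not called (limma adjusted p = 0.147 for crx in the 3-group fit). The list median was 0.07 when the GAPDH ratio was a covariate and -3.63 when the actin ratio was.

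Glial genes lay below in part. Of 16 measured, 6 lay below and 0 above, with 3 called lower. The median was -0.43 (ERbeta2_MO -0.64, coMO -0.19). With the GAPDH ratio as a covariate it was -0.06 in the pooled and -0.32 in the 3-group fit. With the actin ratio it was -0.75 and -0.55. The glutamine synthetase gene glula had signals of 1630.3 and 1482 in ERbeta2_MO and 3193 and 2884 in coMO, against 4348 and 3759.5. The gene cd59a, for a complement inhibitor on the cell surface, stood at 88.9 and 193, 715 and 659, against 1011 and 833. The morpholinos differed in glula by -0.95 and in cd59a by -2.12 (adjusted p = 0.047 and 0.021, limma). The myelin gene mbpb lay at 641 and 746, 765 and 919.6, against 1232 and 1113, and was not called in either fit.

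Red blood cell genes lay above more than below. Of 16 measured, 6 lay above and 3 below, against 16.8% above and 18% below over all genes, so the share below is near the background. In this list 6 were called higher and 0 lower, and the median was 0.35, or 0.18 without ERbeta2_MO replicate 2. With median centring or with quantile normalization, 6 lay above and 1 below. The list median was 0.08 in the pooled and 0.16 in the 3-group fit with the GAPDH ratio as a covariate. The 6 above were hbae3, hbbe2, hbbe3, alas2, nt5c2l1 and epb41b, and of these epb41b was not called. The embryonic beta globin gene hbbe2 had signals of 5307 and 6206 in ERbeta2_MO and 6475 and 4321 in coMO, against 2491 and 3169, a difference of 0.96 (SE 0.22). For hbbe3 the signals were 3716 and 2678, 213 and 42.2, against 10.6 and 8.55, so that the 2 morpholinos differed by 4.56 (limma adjusted p = 0.011). The uninjected signals of hbbe3 are at a level that cannot be separated from background. It passed the filter on mean signal through its ERbeta2_MO arrays, so its side, call and morpholino difference are description only. The probe sets of hbbe2 and hbbe3 share a cluster name with another gene. The anion exchanger gene slc4a1a, at 1938 and 1137, 309 and 195, against 139 and 204, was called higher without lying on one side. The heme synthesis genes urod, uros and cpox lay below, urod at 218 and 159.9, 201 and 292, against 294 and 349, and were not called.

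Lens genes were the list with the largest share above. Only 8 of its 73 entries were measured, so the share rests on few genes. Of these 8, 5 lay above and 0 below, with 3 called higher. The median was 0.61, with 0.71 for coMO and 0.48 for ERbeta2_MO. The beaded filament gene bfsp2, of the lens fiber cytoskeleton, had signals of 1557 and 1757 in ERbeta2_MO and 2044 and 1201 in coMO, against 571 and 917. The beta crystallin gene crybb1 stood at 19802 and 26519, 24368 and 24190, against 14480 and 17082, and crygm2c at 408 and 389, 473 and 429, against 307 and 196. The last 2 were not called (adjusted p = 0.074 and 0.067 in the 3-group fit). With the actin ratio as a covariate the list median was 0.07 in the pooled fit and 0.22 in the 3-group fit.

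Of 49 genes of neural progenitors and early neurons, 23 lay above, 0 lay below and 26 overlapped, and 5 were called higher. The median was 0.41 (ERbeta2_MO 0.54, coMO 0.34). With the actin ratio as a covariate it was 0.11 in the pooled fit and turned to -0.19 in the 3-group fit. The proneural gene neurog1 had signals of 368 and 286 in ERbeta2_MO and 181 and 184 in coMO, against 110.2 and 122. The zinc finger gene insm1b, of cells leaving the cell cycle, stood at 2418 and 2559, 1823 and 1476, against 1099.7 and 1016. The neuronal RNA binding protein gene elavl3 had 5153 and 8722, 4282 and 3159, against 1729.7 and 2424, and sox11b 1760.4 and 1734, 1211 and 945, against 641 and 737. Of the other 3 probe sets of elavl3, 1 lay the opposite way.

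The Notch pathway, through which neighbouring cells choose different fates, had 11 of 27 genes above and 0 below, with 3 called higher and a median of 0.38. The ligand gene dla had signals of 1229 and 965 in ERbeta2_MO and 608 and 584 in coMO, against 341 and 437. The ligand gene jag1a stood at 218 and 202, 217 and 183, against 118 and 144, and the receptor gene notch2 at 815 and 637, 855 and 662, against 484 and 499. Neither jag1a nor notch2 was called (limma adjusted p of 0.10 for each in the 3-group fit), and the other probe set of notch2 did not lie above. The feedback inhibitor gene nrarpa had 1871 and 1885, 1598 and 1238, against 978 and 830.2, while 2 of its other 3 probe sets lay the opposite way. Of 35 Hox genes, which set position along the body axis, 11 lay above and 1 below, with 2 called higher and a median of 0.27, or 0.14 without ERbeta2_MO replicate 2 or without uninjected replicate 1. The gene hoxb3a had 2408 and 2452, 1933 and 1861, against 1042 and 1177, and hoxb9a 1087 and 876, 640.4 and 343, against 301 and 300.4.

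The splicing and hnRNP list, which takes members by the start of symbols such as lsm, held 30 of 73 above and 2 below. In it 3 were called higher, against 2.42% over all genes, and the median was 0.27 (ERbeta2_MO 0.40, coMO 0.13). The spliceosome gene sf3b2 had signals of 1146 and 1075 in ERbeta2_MO and 959.5 and 1008 in coMO, against 705 and 713. The genes lsm12a and lsm12b, whose place in the list rests on their names alone, differed by 1.01 and 0.86 and were among those called. The gene hnrnpaba differed by 0.51 (SE 0.19). Neither sf3b2 nor hnrnpaba was called (limma adjusted p = 0.070 and 0.075 in the 3-group fit), and 1 of the other 2 probe sets of lsm12a lay the opposite way. The other probe set of lsm12b did not lie above. Scaling moved the count, since with median centring 41 of the 73 lay above and 1 below. Cytosolic ribosomal protein genes had 15 of 72 above and 3 below, with 0 called and a median of 0.05, and with quantile normalization 16 lay above and 8 below.

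**Figure D5:**
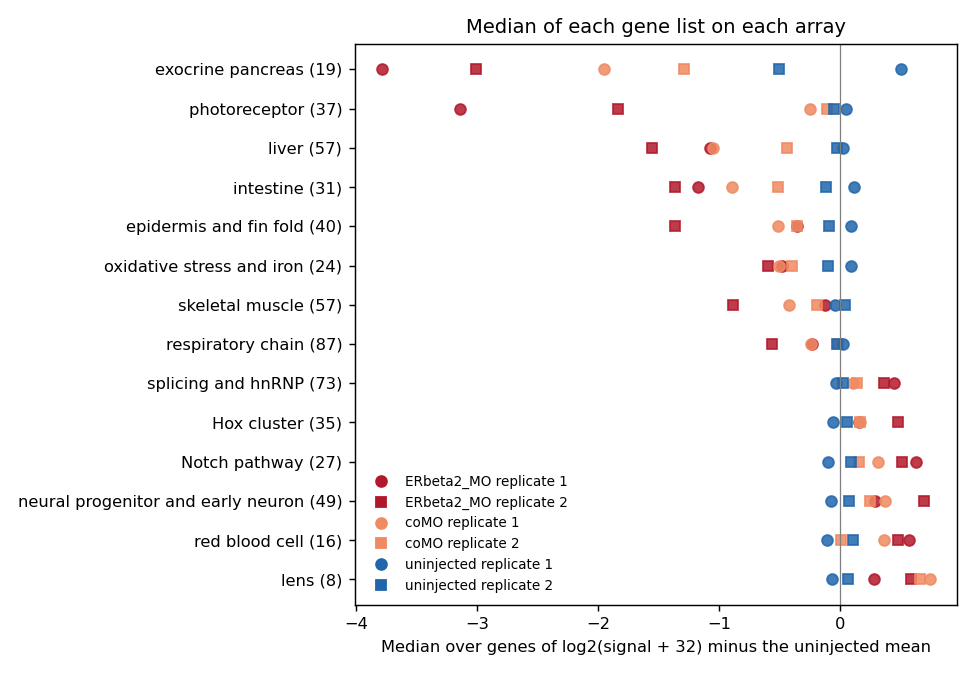
Median over the genes of 14 lists of log2(signal + 32) on each array minus the mean of the uninjected arrays, with the number of genes in brackets. The exocrine pancreas medians run from -3.78 to -1.29 on the injected arrays, the photoreceptor medians of the coMO arrays, -0.24 and -0.10, lie next to the uninjected ones, and the 4 injected medians of the antioxidant and iron list lie between -0.59 and -0.39.

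The stress and defence lists are set against the shares over all genes, 16.8% above and 18% below. Of 31 genes of the integrated stress and unfolded protein response, 8 lay below and 3 above, with 3 called lower, 2 called higher and a median of -0.06. The unfolded protein response gene xbp1 had signals of 2802 and 2955 in ERbeta2_MO and 2299 and 2949 in coMO, against 4114 and 4168, and was not called (limma adjusted p = 0.064 in the 3-group fit). Heat shock and chaperone genes had 4 of 26 below and 0 above, with 1 called lower. Interferon response genes had 2 of 10 below and 0 above, and inflammation and injury genes 5 of 31 below and 0 above, with 0 called in either list. Markers of leukocytes had 3 of 8 below and 1 above, with 2 called lower. The cell cycle list had 12 of 53 above and 9 below, with 1 called higher and 2 called lower. The replication gene mcm6 had 10.7 and 44.8, 68.1 and 160.0, against 232 and 258, and the cyclin gene ccnd1 had 5865 and 6518, 4162 and 3547, against 2904 and 2685. The proliferation gene mki67 had probe sets on both sides, with signals of 772, 632, 698 and 701 against 496 and 513 on one and 55.8, 55.4, 54.8 and 76.5 against 145 and 186 on another, of which the first was not called and the second was called lower. The second passed the filter on mean signal through its uninjected arrays, so its side and call are description only.

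The lists not yet described had members on both sides. Above and below, the counts were 1 and 7 of 21 cartilage and bone genes, 3 and 3 of 20 matrix genes, 1 and 5 of 13 heart genes, 3 and 4 of 19 endothelium genes and 1 and 1 of 10 pigment cell genes. They were 2 and 3 of 29 mature neuron and synapse genes, 2 and 1 of 13 endocrine pancreas and gut hormone genes, 1 and 6 of 26 circadian clock genes and 2 and 6 of 18 sterol and fatty acid synthesis genes. Proteasome genes had 4 of 40 above and 1 below, and with quantile normalization 2 and 4. Translation factor and tRNA synthetase genes had 12 of 70 above and 3 below. The pooled fit called 0 in each of these lists. In the 3-group fit, 4 cartilage and bone, 3 endothelium, 3 circadian clock and 3 sterol and fatty acid synthesis genes were called lower. The heart, mature neuron and translation factor lists had 1 called lower each. Called higher were 2 translation factor, 1 circadian clock and 1 endocrine pancreas and gut hormone genes. Matrix, pigment cell and proteasome genes had 0 called. The shares over all genes were 2.42% higher and 5.77% lower.

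The series title names the neuromasts, the sense organs of the lateral line, and of 18 lateral line and hair cell genes 4 lay above and 2 below, with 0 called higher and 1 lower. Over all genes 16.8% lay above and 18% below, so these shares are near the background, and the list median of 0.21 turned to -0.03 in the pooled fit adjusted for the actin ratio. The placode gene eya1 had signals of 670.1 and 624 in ERbeta2_MO and 692 and 426 in coMO, against 303 and 348, and hmx3a stood at 233 and 307, 221 and 181, against 147 and 110.2. The chemokine receptor gene cxcr4b, used by the migrating lateral line primordium, lay at 203 and 174, 124 and 101, against 73.4 and 89.7. None of these 3 was called (limma adjusted p between 0.056 and 0.074 in the 3-group fit). The gene called lower was pvalb8, a parvalbumin gene of hair cells, at 511 and 539, 1357 and 1435, against 2505 and 2051. The morpholinos differed in pvalb8 by -1.36 (limma adjusted p = 0.022).

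The genes on which the morpholinos were most alike were named from the 3-group calls with a pooled difference of at least 1. The 5 with the smallest difference between ERbeta2_MO and coMO were cbr1l, a carbonyl reductase gene, polr2a, for the largest subunit of RNA polymerase II, apoa4b.1, bfsp2 and cyb5b, of the outer mitochondrial membrane. For polr2a the signals were 1674 and 1376 in ERbeta2_MO and 1740.5 and 1239.9 in coMO, against 609 and 872. The gene cbr1l stood at 328 and 177, 186 and 321, against 655 and 555, and cyb5b at 77.7 and 97.4, 63.5 and 138, against 208 and 255. Their differences between the morpholinos lay between -0.10 and 0.08, and the 95% interval of the difference was -0.76 to 0.73 for cbr1l and -0.54 to 0.63 for polr2a. The 5 with the largest pooled difference among those called between the morpholinos were hbbe3, ctrb.1, gnat2, ctrl and epd. The ependymin gene epd had 105 and 144, 413 and 1153, against 2792 and 1843.

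The gene rps27l, of a ribosomal protein family, was a member with unequal morpholinos. Its signals were 6489.8 and 3052 in ERbeta2_MO and 856 and 813 in coMO, against 673 and 689. All 4 injected arrays lay above, the pooled difference was 1.47 (SE 0.76, limma adjusted p = 0.305), and the morpholinos differed by 2.37 (adjusted p = 0.019).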

How the data were processed

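Total RNA of whole embryos was labelled with biotin and hybridised, as the labels' protocols say. The deposited table holds 1 signal intensity per probe set and array on a linear scale, made by the authors with MAS5, which is named without a version in the submitters' processing notes. The 2%-trimmed mean computed from it was 500.1 on every array, and the median signal lay between 196.67 and 220.4. No detection calls were used here, so a low signal may be background, and precision is limited by the number of arrays. The deposited tables of fold ratios were not used.

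Signals were taken as log2(signal + 32), which understates the changes of low genes. After removal of 115 control probe sets and the lowest 25% by mean signal, the fits held 11626 of 15617. The main fit was limma 3.58.1 in R 4.3.3 (lmFit, eBayes with an intensity trend) on 4 injected against 2 uninjected arrays, with 4 residual degrees of freedom, two-sided, with Benjamini-Hochberg adjustment at 0.05. The 3-group fit, listed in advance as an alternative, has 3 residual degrees of freedom. The p-values cover only how these samples vary. An exact permutation test of 4 against 2 arrays cannot go below p = 0.0667. Fits were tested on simulated data.

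The platform annotation gave 1 symbol for 10802 probe sets, several for 135 and none for 4680, with 10718 matched by gene number to the RefSeq gene table of GRCz12tu (1 symbol changed). The probe set with the highest mean stands for a gene. Probe sets of apoa4b.1, apoa4b.2, cldni, crygm2c, dla, elavl3, hnrnpaba, mki67 and ptf1a also share a cluster name with another gene, so their identity is less certain.

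The members and gene lists were chosen with earlier results of these data known. Named genes were, for each direction, the 12 smallest unadjusted p among genes on one side, the 5 most alike and the 5 largest differing between the morpholinos (both by the 3-group fit, since the pooled fit called none), and the estrogen receptor genes. Examples within lists were those on one side with the smallest p, and these and apoa1a, cat, crx, ela2, fabp2, fabp10a, mki67, opn1mw1, prss1, rps27l, slc4a1a, uox, urod and vil1 were chosen after their values were seen. One gene list and some genes of the naming rule are not reported here. Alternatives varied pseudocount (1 and 100), filter, scaling, prior, covariate and fit, and left out each array.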

Additional observations from a re-analysis of the deposited data

Results flagged for a closer look

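Among the 4 injected arrays, 1 array stood apart from the other 3 by Dixon's test for 3 of the 116 named genes. The test flags about 1 in 20 groups by chance, so this number is not more than chance would give. The globin gene hbae3 had a signal of 38112 on ERbeta2_MO replicate 2, above the other injected arrays. The esterase gene ces2a had 2150.0 on coMO replicate 2, above the others, and gnb1b, a G protein beta subunit gene, had 4962 on the same array, below the others.

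The difference from uninjected embryos was unequal between the morpholinos, by the test of ERbeta2_MO against coMO in the 3-group fit (limma, adjusted p of at most 0.05), for the genes that follow. On the log2 scale ERbeta2_MO exceeded coMO by 4.56 in hbbe3, 2.45 in slc4a1a and 2.37 in rps27l. Of these, hbbe3 passed the filter on mean signal through its ERbeta2_MO arrays, so its value is description only. It lay lower by the following differences of ERbeta2_MO minus coMO. In eye and glial genes these were -4.25 for gnat2, -4.11 for opn1mw1, -2.0 for prph2a, -2.12 for cd59a and -0.95 for glula. In digestive genes they were -3.01 for ctrb.1, -2.20 for ctrl, -2.27 for prss1, -3.04 for fabp10a, -2.74 for uox, -2.28 for vil1 and -2.36 for fabp2. The rest were -2.23 for epd, -1.36 for pvalb8, -1.32 for pfkma and -1.20 for cat.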

How the results depend on the processing

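The pooled count of 0 calls in each direction was the same with pseudocounts of 1 and 100, no filter, the lower 50% left out, median centring, quantile normalization, a constant or robust prior, either RNA ratio as covariate, and the replicate block (0 higher, 0 lower). The 3-group fit gave 367 and 628. Leaving out 1 array gave 0 to 201 higher and 0 to 393 lower. The labels do not say whether the replicate numbers pair the samples. The deviations of same-numbered arrays correlated by -0.08, 0.11 and -0.10 between the groups. These values show no strong shared deviation, but with 2 arrays per group they cannot exclude a pairing. In the 3-group fit, alternatives chosen after seeing the data gave 153 higher with the replicate block (444 lower), 570 higher with median centring, 410 lower with the lower 50% left out, 0 and 0 with either RNA ratio, and 0 to 1258 higher and 0 to 1523 lower without 1 array; the cause was not tested. The number of probe sets on one side was 2345 to 3351 above and 2152 to 2828 below over the fits without 1 array, as fewer arrays must lie on one side, and 1218 below with the lower 50% left out, which tests fewer probe sets. Of 2071 values of 116 named genes under alternatives, 1913 kept their direction and were not called, 156 kept it and were called, and 2 reversed. These were apoa1a with the actin ratio (0.15) and opn1mw1 with the GAPDH ratio (0.41). Most of the named genes were picked because the injected arrays lay on one side. For those genes, another pseudocount, filter or prior, or leaving out 1 array, could not reverse the direction. Their kept direction under these alternatives is therefore not a check. Of 665 list medians, 619 stayed within 1 SD over the injected arrays and 46 moved further. Of the medians of at least 0.1 in size, 11 changed sign: with the actin ratio those of inflammation (0.59), muscle (0.03), heart (0.01), pigment cells (0.45), lateral line (-0.03) and the estrogen list (0.002); with the GAPDH ratio those of photoreceptors (0.07), matrix (0.21) and translation factors (-0.075); and that of matrix without ERbeta2_MO replicate 1 (0.06) and without uninjected replicate 2 (0.001). These 11 sign changes are from the pooled fit, and in the 3-group fit the photoreceptor median was -0.60 with the GAPDH ratio. In the 3-group fit with the actin ratio, medians that changed sign included those of liver (0.25), epidermis (0.43), muscle (0.44) and respiratory chain (0.19). Those of antioxidant and iron genes (0.01), neural progenitors (-0.19) and lateral line (-0.05) changed sign as well. The cause was not tested. The interferon list had no genes left with the lower 50% left out. With 2 uninjected arrays and no detection calls, low signals and small differences are the least certain.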
